A study of Mus musculus with 8 samples.

Results

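The genes examined here encode apolipoproteins and carriers of retinol and fetal plasma: Apoe, Apoa1, Apoc1, Apob, Apom, Ttr, Rbp4 and Afp. They were picked by gene name from the 2 expression tables of a study of KLF3, a zinc finger transcription factor of the Krüppel-like family, in mouse embryonic stem cells (mESCs). Of the 8 genes, 7 had a value in at least 1 table and 6 had values in both, against 14709 genes in either table and 12666 in both. Apob was analysed only in the overexpression table and Afp was not analysed here. RNA was measured in 8 samples that formed 4 groups of 2. In the sorting experiment, mESCs carried a reporter in which the N-terminal part of KLF3, lacking the DNA-binding domain, was fused to a green fluorescent protein (Emerald GFP), and cells with and without the green signal were separated as KLF3-GFP-negative mESCs and KLF3-GFP-positive mESCs, 500 cells per sample, for Smart-seq2 libraries. In the overexpression experiment, KLF3-OE mESCs carried a codon-optimized Klf3 and GFP-OE mESCs carried GFP, each placed at a recombination site of the Col1a1 locus in cells that make the reverse tetracycline activator from Rosa26, and both were given doxycycline for 72 h before poly(A) libraries were made. The cells came from 3.5-day embryos of C57BL/6(F) x 129/sv(M) crosses, and were grown in serum with LIF on gelatin. Both models started from picked, drug-selected colonies, those of the overexpression lines selected on feeder cells, the reporter was driven by the ubiquitous CAGGS promoter, and clone and condition cannot be told apart in the overexpression experiment.

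Apolipoproteins are the protein coat of lipoprotein particles, which carry cholesterol and triglycerides in an aqueous medium. APOB is the large scaffold around which a particle is built, APOA1 is the main protein of high-density lipoprotein, APOE is a ligand by which cell surface receptors take particles up, APOC1 is a small exchangeable protein that slows that uptake, and APOM is a lipocalin that carries a bioactive sphingolipid. RBP4 carries retinol, TTR binds the RBP4-retinol complex as well as thyroxine, and AFP is the major plasma protein of the fetus. In the adult the liver makes nearly all of them, and in the early embryo the visceral endoderm of the yolk sac does.

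Levels were given as FPKM, fragments per kilobase of transcript scaled to the number of fragments mapped, so values of different genes can be set side by side. Each table held a single value per condition, the authors' mean of 2 samples, so no SD could be given and no difference could be tested against the spread between replicates. Differences were therefore described on the log2(FPKM + 1) scale, a gene was said to have risen or fallen only past 2-fold on that scale (above 1 or below -1), and a gene was counted only where its 2 columns averaged 1 FPKM or more. The lowest value printed in either table was 0.1 FPKM, so a plain ratio against it is a lower bound. As these are bulk samples, fewer cells of a type and less RNA per cell cannot be told apart. Klf3 was at 107.04 FPKM in KLF3-GFP-negative mESCs and at 122.29 FPKM in the KLF3-GFP-positive ones, and at 58.66 FPKM in GFP-OE and 47.76 FPKM in KLF3-OE mESCs. The reporter holds part of Klf3, so the values of the sorted cells may include its reads and cannot be called endogenous. The overexpression transgene was recoded and need not align to Klf3, so the values of that experiment do not check the overexpression label. The Y-linked genes Eif2s3y, Uty and Ddx3y were at 30.87, 3.56 and 3.34 FPKM in GFP-OE mESCs. In KLF3-OE mESCs Eif2s3y was at 1.67 FPKM, and Uty and Ddx3y were at the lowest printed value. The part of this difference between the lines in the other differences of that experiment was not tested.

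In the sorted cells, Apoe, Apoc1 and Apom rose, Apoa1 fell, and Rbp4 stayed within 2-fold. In the overexpression experiment, Apoa1, Ttr, Apom and Rbp4 rose, while Apoe and Apoc1 stayed within 2-fold. Of the 5 members counted in the sorted cells, 3 rose against 13.8% of all 9212 genes, and 1 fell against 8.32%. The median difference of those 5 was 1.77, beside 0.03 over all genes counted. Of the 6 members counted after overexpression, 4 rose against 6.60% of 11179 genes, and 0 fell against 10.1%. Their median difference was 1.75, beside -0.18 over all genes counted. All 4 that rose were under 1 FPKM in GFP-OE mESCs, from 0.14 FPKM for Ttr to 0.93 FPKM for Rbp4. They were counted only through their KLF3-OE values, so the filter itself favoured rises among them. With no filter on low values, 4 of the 7 analysed members rose, against 5.23% of all genes. In that experiment 39.4% of the genes past 2-fold were higher, and this share became 62.9% after median-ratio scaling of the columns, 53.4% after quantile normalization and 57.5% after a trend with gene span was removed. Median-ratio scaling moved the median of all genes to 0.00. The direction of every analysed member was the same under these scalings. Apom was the sole counted member that rose in both experiments, as did 2.55% of the 8887 genes counted in both. Apoa1 fell in the sorted cells and rose after overexpression, as did 0.74% of those genes. Ttr had differences of 1.34 in the sorted cells and 1.99 after overexpression. It averaged 0.945 FPKM in the sorted cells and so was not counted there.

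**Figure D1:**
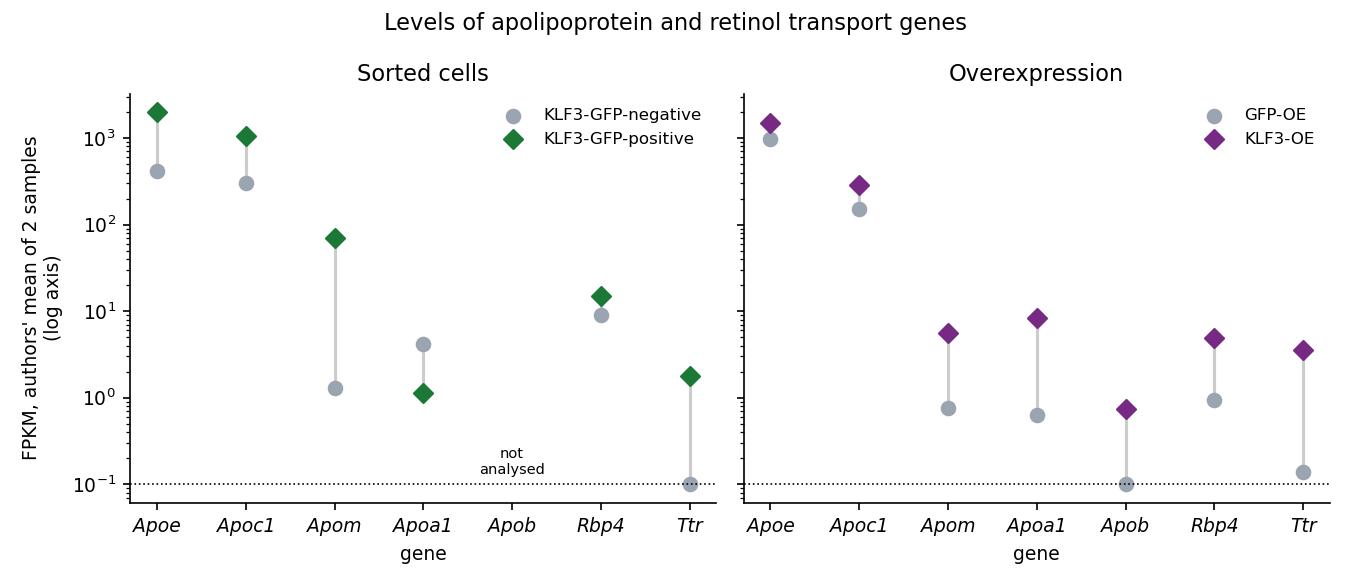
Levels of each gene in the 4 conditions, in FPKM on a log axis, each point being the authors' mean of 2 samples. Apoe and Apoc1 lie above 100 FPKM in every condition, and Apom goes from 1.29 to 70.86 FPKM between KLF3-GFP-negative and KLF3-GFP-positive mESCs.

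Apoe and Apoc1 were the only members at a high level in every condition. Together they made up 98.0% of the members' summed FPKM in KLF3-GFP-negative, 97.2% in KLF3-GFP-positive, 99.8% in GFP-OE and 98.7% in KLF3-OE mESCs. The sum itself stood at 740.51 FPKM in KLF3-GFP-negative mESCs and at 3133.06 FPKM in the KLF3-GFP-positive ones. It was 1131.56 FPKM in GFP-OE and 1810.04 FPKM in KLF3-OE mESCs. Without Apoe and Apoc1, the other members summed to 14.47 and 88.8 FPKM in the sorted cells, and to 2.56 and 23.07 FPKM in the overexpression experiment. In KLF3-GFP-positive mESCs the order of levels was Apoe, Apoc1, Apom, Rbp4, Ttr and Apoa1. In KLF3-OE mESCs it was Apoe, Apoc1, Apoa1, Apom, Rbp4, Ttr and Apob. Without replicate values, the order among Apom, Rbp4 and Ttr in KLF3-OE mESCs, which lay between 3.53 and 5.54 FPKM, could not be set against their spread.

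Apoe (ENSMUSG00000002985) spanned 4 exons on the minus strand of chromosome 7, from 19696109 to 19699166 in mm10. It stood at 420.11 FPKM in KLF3-GFP-negative mESCs and at 1995.36 FPKM in the KLF3-GFP-positive ones, a difference of 2.25 on the log2(FPKM + 1) scale, or 4.75-fold in plain FPKM. This moved Apoe from rank 333 to rank 84 among the levels of all 13056 genes in that table. In the overexpression experiment it stood at 977.32 FPKM in GFP-OE and 1503.49 FPKM in KLF3-OE mESCs, a difference of 0.62, or 1.54-fold. Apoe was thus already at rank 109 of 14319 genes with GFP alone and at rank 104 with KLF3. Apoc1 (ENSMUSG00000040564) lies next to it on the same strand, from 19689484 to 19692658, its start 6.5 kb beyond that of Apoe. It was at 305.93 FPKM in KLF3-GFP-negative mESCs and at 1048.90 FPKM in the KLF3-GFP-positive ones, a difference of 1.77, or 3.43-fold. After overexpression it was at 151.68 FPKM with GFP and 283.48 FPKM with KLF3, a difference of 0.90, or 1.87-fold. The neighbours therefore had the higher level in the same condition of each experiment. The ratio of Apoe to Apoc1 FPKM was 1.37 and 1.90 in the sorted cells, and 6.44 and 5.3 in the overexpression experiment.

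Around this gene cluster, within 50 kb of the start of Apoe, the other genes moved in different directions. Apoc2, the activator of lipoprotein lipase, rose in both experiments, from 1.52 to 10.34 FPKM in the sorted cells and from 0.85 to 4.48 FPKM after overexpression. Apoc4, a minor apolipoprotein, fell from 2.40 to 0.38 FPKM in the sorted cells and was at 0.13 and 0.83 FPKM with GFP and KLF3, below the level for counting. Tomm40, a mitochondrial import channel, had a difference of -0.33 in the sorted cells and rose by 1.10 after overexpression, from 73.76 to 158.7 FPKM. Clptm1 rose by 1.02 in the sorted cells, from 5.01 to 11.16 FPKM, and had a difference of -0.10 after overexpression. Only Apoc2 among these neighbours rose in both experiments.

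**Figure D2:**
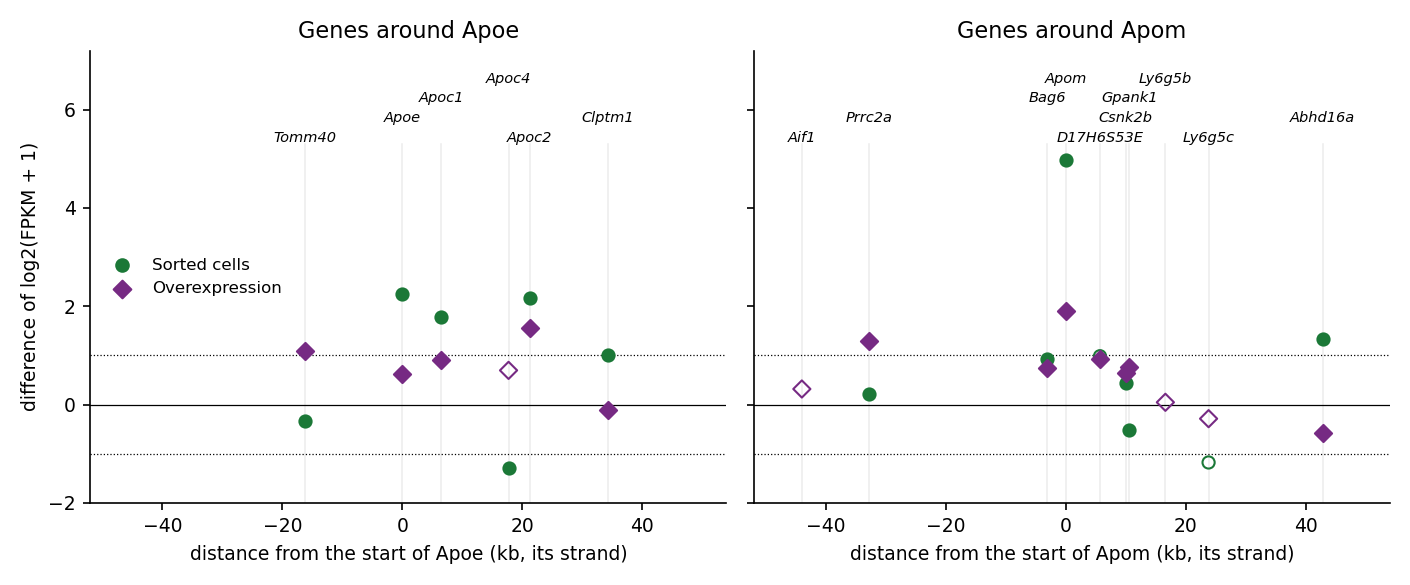
Difference of log2(FPKM + 1) for genes within 50 kb of the start of Apoe and Apom, against the distance in kb from that start along its strand, in sorted cells (circles) and overexpression (diamonds), with open symbols for genes with a mean under 1 FPKM and dotted lines at 1 and -1. Apoc2 is above the upper line in both experiments, and Apom stands at 4.97 in the sorted cells while its neighbour Bag6 is at 0.92.

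Apom (ENSMUSG00000024391), on the minus strand of chromosome 17 from 35128997 to 35132050, differed the most of all members in the sorted cells. It was at 1.29 FPKM in KLF3-GFP-negative mESCs and at 70.86 FPKM in the KLF3-GFP-positive ones, a difference of 4.97, or 54.9-fold. Apom had rank 19 of the 9212 genes counted, ordered from the largest rise. With GFP it was at 0.76 FPKM and with KLF3 at 5.54 FPKM, a difference of 1.89, or 7.29-fold, at rank 80 of 11179. Apom was near the counting level in both control conditions and above it in both others. Bag6, a chaperone gene whose start lies 3.1 kb away, had 25.05 and 48.24 FPKM in the sorted cells and 68.96 and 115.46 FPKM after overexpression, differences of 0.92 and 0.74. Of 7 neighbours of Apom within 50 kb in the sorted table, 1 rose (Abhd16a, from 4.70 to 13.43 FPKM), and of 9 after overexpression 1 rose (Prrc2a, from 113.18 to 279.8 FPKM). None of these genes rose past 2-fold in both experiments as Apom did. D17H6S53E, 5.7 kb away, came close, with differences of 0.98 in the sorted cells, where it averaged under 1 FPKM, and 0.93 after overexpression. Gpank1 and Ly6g5c were lower in KLF3-GFP-positive mESCs, and Ly6g5c and Abhd16a were lower in KLF3-OE mESCs.

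Apom rose in both experiments, Apoe rose in the sorted cells only, and Apoa1 had opposite directions. As examples of these 3 patterns, the 250 bases before the RefSeq starts of these genes are shown. They come from RefSeq on GRCm38.p6, the assembly also called mm10, and are written 5′ to 3′ on the strand of each gene, from chr17:35131802-35132051 on the minus strand for Apom, chr7:19699189-19699438 on the minus strand for Apoe and chr9:46228380-46228629 on the plus strand for Apoa1. Capitals mark matches to the motifs searched on both strands, which were CACCC (the core of the box that Krüppel-like factors bind), GATAA (GATA factors), AGGTCA and GGGTCA (nuclear receptor motifs), GTTAAT (HNF1) and CAAAGTCCA (HNF4). The Apom and Apoa1 windows overlap the longer spans that the expression tables give to these genes, nearly in full for Apom and at the 3′ end of the window for Apoa1.
Apom: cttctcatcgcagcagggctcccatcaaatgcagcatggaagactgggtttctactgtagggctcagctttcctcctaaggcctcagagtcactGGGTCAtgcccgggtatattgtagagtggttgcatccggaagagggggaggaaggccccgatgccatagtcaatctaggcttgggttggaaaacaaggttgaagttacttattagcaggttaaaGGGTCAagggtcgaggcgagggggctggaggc
Apoe: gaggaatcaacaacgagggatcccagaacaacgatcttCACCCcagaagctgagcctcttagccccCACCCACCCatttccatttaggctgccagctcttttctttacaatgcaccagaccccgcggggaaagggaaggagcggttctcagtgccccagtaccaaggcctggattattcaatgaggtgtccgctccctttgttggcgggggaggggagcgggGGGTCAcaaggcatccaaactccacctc
Apoa1: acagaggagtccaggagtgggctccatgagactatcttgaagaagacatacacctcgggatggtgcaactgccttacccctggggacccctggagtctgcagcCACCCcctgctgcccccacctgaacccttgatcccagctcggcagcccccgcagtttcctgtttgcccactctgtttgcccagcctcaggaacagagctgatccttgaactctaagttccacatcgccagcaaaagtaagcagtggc
The Apoe window held 3 CACCC matches, 212, 184 and 180 bases before the start, and a GGGTCA match at 28 bases. The Apoa1 window held 1 CACCC match at 147 bases. The Apom window held GGGTCA at 156 and at 32 bases and no CACCC. Windows of Rbp4, which rose only after overexpression, Apob and Afp were also searched but are not shown. That of Rbp4 held GGGTCA at 53 bases and no CACCC. The Apob window held CACCC at 216 and GATAA at 153 bases, and the Afp window GGGTCA at 118 and GTTAAT at 105 bases. Over 32851 promoter windows of the same length, CACCC occurred in 52.0%, GATAA in 22.6%, AGGTCA in 14.0%, GGGTCA in 11.6%, GTTAAT in 6.43% and CAAAGTCCA in 0.384%. The motifs were chosen after the values were seen, and a match describes letters, not a bound site. A window with no match says nothing about the factor.

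Apoa1 (ENSMUSG00000032083), on the plus strand of chromosome 9 from 46228580 to 46230466, was the only member with opposite directions. It stood at 4.16 FPKM in KLF3-GFP-negative mESCs and at 1.14 FPKM in the KLF3-GFP-positive ones, a difference of -1.27, or 3.65-fold lower. With GFP it was at 0.63 FPKM and with KLF3 at 8.41 FPKM, a difference of 2.53, or 13.3-fold higher, at rank 28 of 11179. The level in KLF3-GFP-negative mESCs thus lay above that in GFP-OE mESCs, although the tables were normalized separately and these controls differ in library type. Apoc3 and Apoa4 share the locus with Apoa1. Apoc3, an inhibitor of lipoprotein lipase, was at 0.72 and 0.46 FPKM in the sorted cells. Apoa4, an apolipoprotein of intestinal particles, was at 0.10 FPKM with GFP and 0.64 FPKM with KLF3. Neither reached the level for counting.

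The retinol carrier Rbp4 (ENSMUSG00000024990), on the minus strand of chromosome 19 from 38116620 to 38125321, was at 8.92 FPKM in KLF3-GFP-negative mESCs and at 15.01 FPKM in the KLF3-GFP-positive ones. The difference of 0.69, or 1.68-fold, was within 2-fold. With GFP it was at 0.93 FPKM and with KLF3 at 4.84 FPKM, a difference of 1.60, or 5.20-fold, at rank 158 of 11179. Its partner Ttr (ENSMUSG00000061808), from 20665250 to 20674324 on the plus strand of chromosome 18, was at the lowest printed value of 0.10 FPKM in KLF3-GFP-negative and at 1.79 FPKM in KLF3-GFP-positive mESCs. That is at least 17.9-fold higher in plain FPKM and 1.34 on the log2(FPKM + 1) scale, but its mean of 0.945 FPKM kept it out of the count. After overexpression Ttr was at 0.14 FPKM with GFP and 3.53 FPKM with KLF3, a difference of 1.99, or 25.2-fold, at rank 65 of 11179. Both carriers were therefore at low levels in GFP-OE mESCs and rose with KLF3.

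Apob (ENSMUSG00000020609), with 29 exons on the plus strand of chromosome 12 from 7977648 to 8016835, was the lowest member after overexpression. It was at 0.10 FPKM with GFP and 0.75 FPKM with KLF3, which is at least 7.5-fold higher in plain FPKM and 0.67 on the log2(FPKM + 1) scale. Its mean was under 1 FPKM, so Apob was not counted. Mttp, the transfer protein that loads lipid onto APOB, was at 11.01 and 16.49 FPKM in the sorted cells and at 2.03 and 4.15 FPKM after overexpression, within 2-fold in both. Apobec1, the enzyme that edits the Apob messenger, was at 0.69 and 0.54 FPKM in the sorted cells and at 6.3 and 4.3 FPKM after overexpression. In the overexpression experiment Apob was thus below Mttp in both conditions, and Apob was not analysed in the sorted cells. Afm, the gene next to Afp, was at 0.10 FPKM with GFP and 0.37 FPKM with KLF3.

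**Figure D3:**
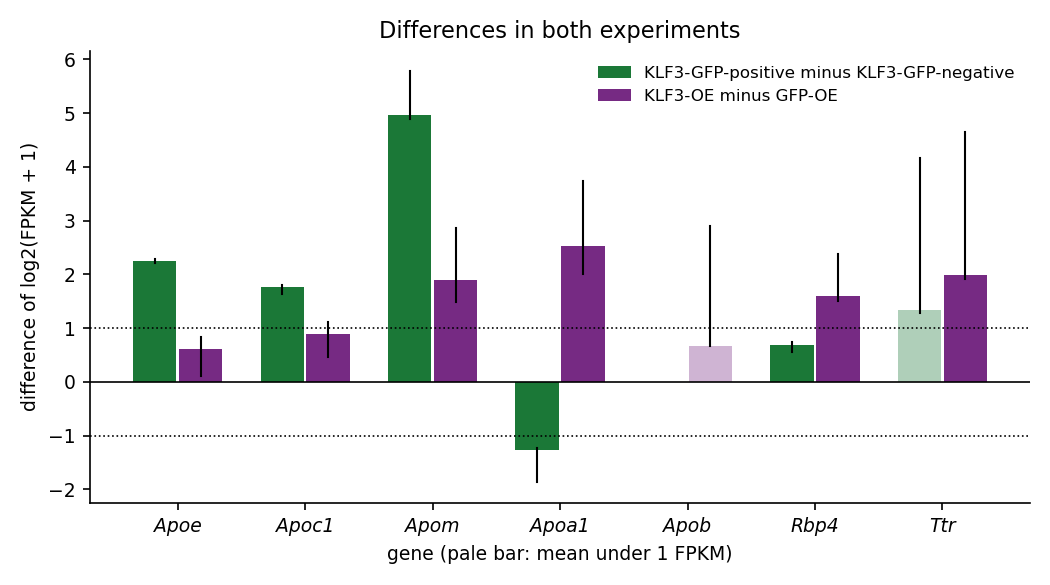
Difference of log2(FPKM + 1) for each gene, KLF3-GFP-positive minus KLF3-GFP-negative mESCs on the left and KLF3-OE minus GFP-OE mESCs on the right, with pale bars for genes with a mean under 1 FPKM, dotted lines at 1 and -1, and black lines for the range over 6 ways of scaling or offsetting the values, not an error. Apoa1 is at -1.27 in the sorted cells and 2.53 after overexpression, and no line crosses 0.

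Other apolipoproteins, from a list of 25, followed both patterns. In the sorted cells 6 were counted, of which 2 rose and 4 fell, with a median difference of -1.50 that became 2.17 when only genes averaging 5 FPKM or more were counted. After overexpression 5 were counted, of which 4 rose and 0 fell, with a median of 1.57 that became 0.50 with no filter on low values. Clu, a chaperone-like apolipoprotein also called APOJ, rose in both, from 6.22 to 91.41 FPKM in the sorted cells and from 12.67 to 113.26 FPKM after overexpression. Apoa2, the second protein of high-density lipoprotein, had opposite directions as Apoa1 did, falling from 76.84 to 17.25 FPKM in the sorted cells and rising from 29.73 to 67.41 FPKM after overexpression. Saa3, an acute phase apolipoprotein, fell from 4.49 to 0.69 FPKM and rose from 2.32 to 9.70 FPKM. Apod, a lipocalin, fell from 3.76 to 0.32 FPKM in the sorted cells and was at 10.2 and 6.36 FPKM after overexpression. Apoa1, Apoa2 and Saa3 were thus lower in KLF3-GFP-positive and higher in KLF3-OE mESCs than in their controls.

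The receptors and adaptors that take up lipoproteins and retinol carriers held several genes that rose in both experiments. Of 18 listed, 10 were counted in the sorted cells, of which 6 rose and 0 fell, with a median of 2.81 that became 0.47 with no filter on low values. After overexpression 15 were counted, of which 5 rose and 2 fell, with a median of 0.53 that became 0.12 with no filter. Dab2, the clathrin adaptor of these receptors, was at 0.78 FPKM in KLF3-GFP-negative mESCs and at 232.84 FPKM in the KLF3-GFP-positive ones, a difference of 7.04, and at 6.26 and 34.72 FPKM with GFP and KLF3, a difference of 2.30. Cubn, the cubilin receptor that binds APOA1, rose from 0.10 to 27.78 FPKM in sorted cells and from 1.76 to 7.93 FPKM with KLF3, and its membrane anchor Amn rose from 2.39 to 184.9 FPKM in sorted cells and from 1.18 to 11.74 FPKM with KLF3. Lrp2, the megalin receptor that takes up RBP4, rose from 0.19 to 17.78 FPKM in sorted cells and from 1.91 to 8.05 FPKM with KLF3. Lrpap1, a chaperone of these receptors, rose from 66.71 to 1761.37 FPKM in sorted cells and from 68.78 to 225.24 FPKM with KLF3. In contrast, Sorl1, a sorting receptor, fell from 8.15 to 1.88 FPKM after overexpression, and Lsr, a lipoprotein receptor of another family, rose from 8.46 to 28.59 FPKM in the sorted cells.

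**Figure D4:**
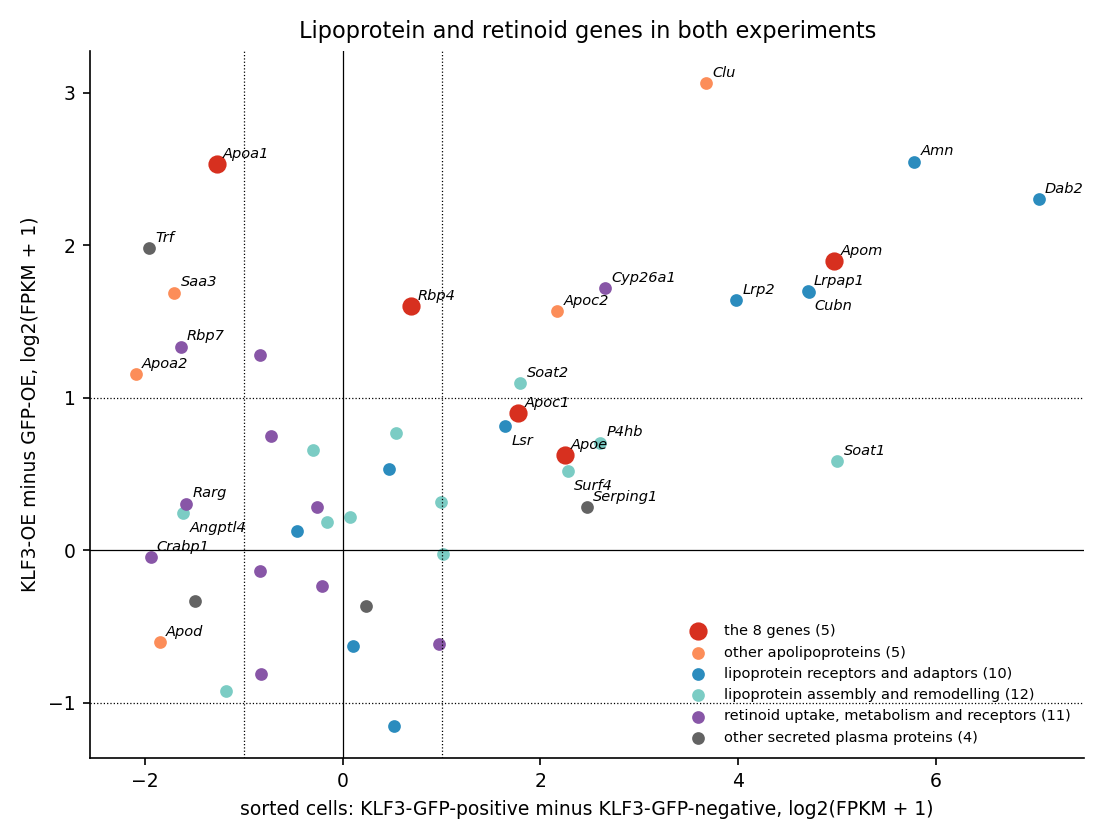
Difference of log2(FPKM + 1) in the sorted cells (horizontal) against the overexpression experiment (vertical) for genes that averaged 1 FPKM or more in both tables, coloured by list, with the number of genes in brackets and dotted lines at 1 and -1. Apom lies with Amn, Cubn, Dab2 and Lrp2 at the upper right, and Apoa1 lies with Apoa2, Saa3, Trf and Rbp7 at the upper left.

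Genes of particle assembly and remodelling, from a list of 25, were mostly within 2-fold after overexpression. Among sorted cells 12 were counted, 5 rose and 2 fell, with a median of 0.77 that became 0.079 with no filter on low values, and after overexpression 15 were counted, 1 rose and 0 fell, with a median of 0.31. Soat1, which esterifies cholesterol, was at 31.62 FPKM in KLF3-GFP-negative mESCs and at 1042.35 FPKM in the KLF3-GFP-positive ones, a difference of 5.0, and at 5.7 and 9.05 FPKM with GFP and KLF3, a difference of 0.58. P4hb, a subunit of the transfer protein complex with Mttp, rose from 105.92 to 650.29 FPKM in the sorted cells, as did Surf4, a cargo receptor for secreted lipoproteins, from 16.79 to 85.38 FPKM. Soat2, the second esterifying enzyme, rose from 1.37 to 7.24 FPKM in the sorted cells and from 1.40 to 4.13 FPKM after overexpression. Angptl4, an inhibitor of lipoprotein lipase, fell from 6.52 to 1.46 FPKM in the sorted cells, and Abcg1, a cholesterol exporter, fell from 7.23 to 2.64 FPKM there. Soat2 was the single gene of this list that rose in both experiments.

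For retinoid uptake, metabolism and receptors, 33 genes were listed. Of these, 11 were counted in the sorted cells, 1 rose and 3 fell, with a median of -0.83 that became -0.48 with no filter on low values. After overexpression 15 were counted, 4 rose and 0 fell, with a median of 0.29 that became -0.091 over genes averaging 5 FPKM or more. Cyp26a1, which degrades retinoic acid and is itself induced by it, rose from 0.10 to 5.93 FPKM in the sorted cells and from 0.19 to 2.92 FPKM after overexpression. Stra6, the receptor for RBP4, was at 0.10 and 0.98 FPKM in the sorted cells and rose from 0.33 to 1.70 FPKM after overexpression. Rbp7, a cellular retinol carrier, fell from 12.35 to 3.29 FPKM in the sorted cells and rose from 1.72 to 5.86 FPKM after overexpression. Crabp1, a retinoic acid carrier, and Rarg, a retinoic acid receptor, fell in the sorted cells, by 1.94 and by 1.58 on the log2(FPKM + 1) scale, and had differences of -0.05 and 0.30 after overexpression. Lrat was not analysed here. After overexpression Rbp4, Ttr, Rbp7 and Stra6 all rose, while in the sorted cells none of them was counted as rising. Rbp4, Ttr and Stra6 were still higher in KLF3-GFP-positive than in KLF3-GFP-negative mESCs, Ttr and Stra6 under the counting level and Rbp4 within 2-fold. Only Rbp7 was lower.

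Of 42 other secreted plasma proteins listed, few reached the counting level. Of these, 5 were counted in the sorted cells, 1 rose and 2 fell, with a median of -0.07, and after overexpression 6 were counted, 1 rose and 0 fell, with a median of -0.31. Trf, which carries iron, fell from 18.17 to 3.93 FPKM in the sorted cells and rose from 5.96 to 26.46 FPKM after overexpression, the directions of Apoa1. Serping1, a complement inhibitor, rose from 1.64 to 13.64 FPKM in the sorted cells, and Serpinf1, a secreted serpin, fell from 4.30 to 0.88 FPKM. Alb was not analysed here.

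Transcription factors of endoderm and liver, from a list of 23, moved in the same samples. In the sorted cells 11 were counted, 6 rose and 0 fell, with a median of 2.28 that became 0.69 with no filter on low values. After overexpression 14 were counted, 6 rose and 2 fell, with a median of 0.50 that became -0.62 over genes averaging 5 FPKM or more and 0.18 with no filter. Gata6, a specifier of primitive endoderm, rose from 1.63 to 21.31 FPKM in sorted cells and from 1.05 to 6.54 FPKM with KLF3, and Gata4 rose from 1.07 to 23.42 FPKM in sorted cells and from 4.16 to 18.68 FPKM with KLF3. Sox17 rose from 2.76 to 53.15 FPKM in sorted cells and from 1.41 to 7.70 FPKM with KLF3, and Foxa2 rose from 0.10 to 7.45 FPKM in sorted cells and from 0.34 to 4.77 FPKM with KLF3. Hnf4a, a nuclear receptor of visceral endoderm and liver, was at 0.10 and 1.21 FPKM in the sorted cells and at 0.44 and 0.97 FPKM after overexpression, under the counting level in both. Zbtb20 and Zhx2, which repress Afp in liver, were low too. Zbtb20 was at 0.30 and 0.15 FPKM in the sorted cells and at 0.26 and 0.23 FPKM after overexpression, and Zhx2 was at 0.13 and 0.30 FPKM after overexpression. Nr5a2, a nuclear receptor of embryonic stem cells and liver, fell from 12.71 to 4.58 FPKM after overexpression.

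Markers of visceral and parietal endoderm differed alongside. Of 20 visceral endoderm markers, 15 were counted in each experiment, and 12 rose and 0 fell in each. Their sum stood at 179.99 FPKM in KLF3-GFP-negative mESCs and at 6928.67 FPKM in the KLF3-GFP-positive ones, and at 361.67 FPKM with GFP and 784.34 FPKM with KLF3. Without the gene of highest level, Spink1 in the sorted cells and Tdh after overexpression, the sums were 136.35 and 2199.94 FPKM, and 108.58 and 511.66 FPKM. Tdh was high in both controls and stayed within 2-fold. It was at 101.75 and 149.11 FPKM in the sorted cells and at 253.09 and 272.68 FPKM with GFP and KLF3. Cubn, Hnf4a, Foxa2, Slc39a8, Ihh and Lhx1 were at the lowest printed value in KLF3-GFP-negative mESCs. Of 14 parietal endoderm markers, 11 of 12 counted rose in the sorted cells and 10 of 11 after overexpression, where 1 fell, and their summed level was 58.24 and 3442.96 FPKM in the sorted cells and 272.8 and 1129.65 FPKM after overexpression. The part of these cell types in the members' differences was not tested. Several markers are also among the receptors and transcription factors above, so those lists are not independent.

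Most markers of liver, blood, connective tissue and trophoblast did not reach the counting level, and some of those counted were past 2-fold. Among all genes counted, 13.8% rose and 8.32% fell in the sorted cells, and 6.60% rose and 10.1% fell after overexpression. Of 14 hepatocyte markers 2 were counted in each experiment and 0 were past 2-fold, with summed levels of 64.15 and 44.4 FPKM in the sorted cells and 93.34 and 126.51 FPKM after overexpression, and without Ass1 of 12.83 and 5.94 FPKM, then 14.22 and 10.27 FPKM. Of 16 macrophage markers 3 were counted in the sorted cells, where Cd68 rose from 4.50 to 15.04 FPKM, and 2 after overexpression, where 0 were past 2-fold. Their summed levels were 9.87 and 19.66 FPKM in the sorted cells and 23.6 and 25.09 FPKM after overexpression, and 5.37 and 4.62 FPKM in the sorted cells without Cd68. Of 14 fibroblast and feeder markers, 0 reached the counting level in the sorted cells, and 2 did after overexpression with 0 past 2-fold. Their sums were 0.94 and 2.17 FPKM, then 5.66 and 6.77 FPKM. Trophoblast markers summed to 8.07 and 9.56 FPKM, with 1 of 4 counted higher and 1 lower past 2-fold, and after overexpression to 42.52 and 44.54 FPKM, with 2 of 7 rising. The trophoblast marker Plac1 rose in both experiments, from 0.10 to 5.11 FPKM in the sorted cells and from 0.19 to 4.65 FPKM after overexpression. Erythroid markers summed to 3.76 and 1.08 FPKM in the sorted cells, where the 1 gene counted fell, and to 2.44 and 3.81 FPKM after overexpression, where the 1 gene counted stayed within 2-fold. Of the 14 pluripotency markers, 8 of 13 counted fell and 1 rose in the sorted cells, and 4 of 14 fell after overexpression. All 4 conditions held pluripotency transcripts, with summed levels of 21399.7 and 11292.9 FPKM in the sorted cells and 6455.56 and 8370.86 FPKM after overexpression. Most of these sums came from Dppa5a, and without it they were 830.64 and 315.76 FPKM, and 2661.78 and 2036.79 FPKM.

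**Figure D5:**
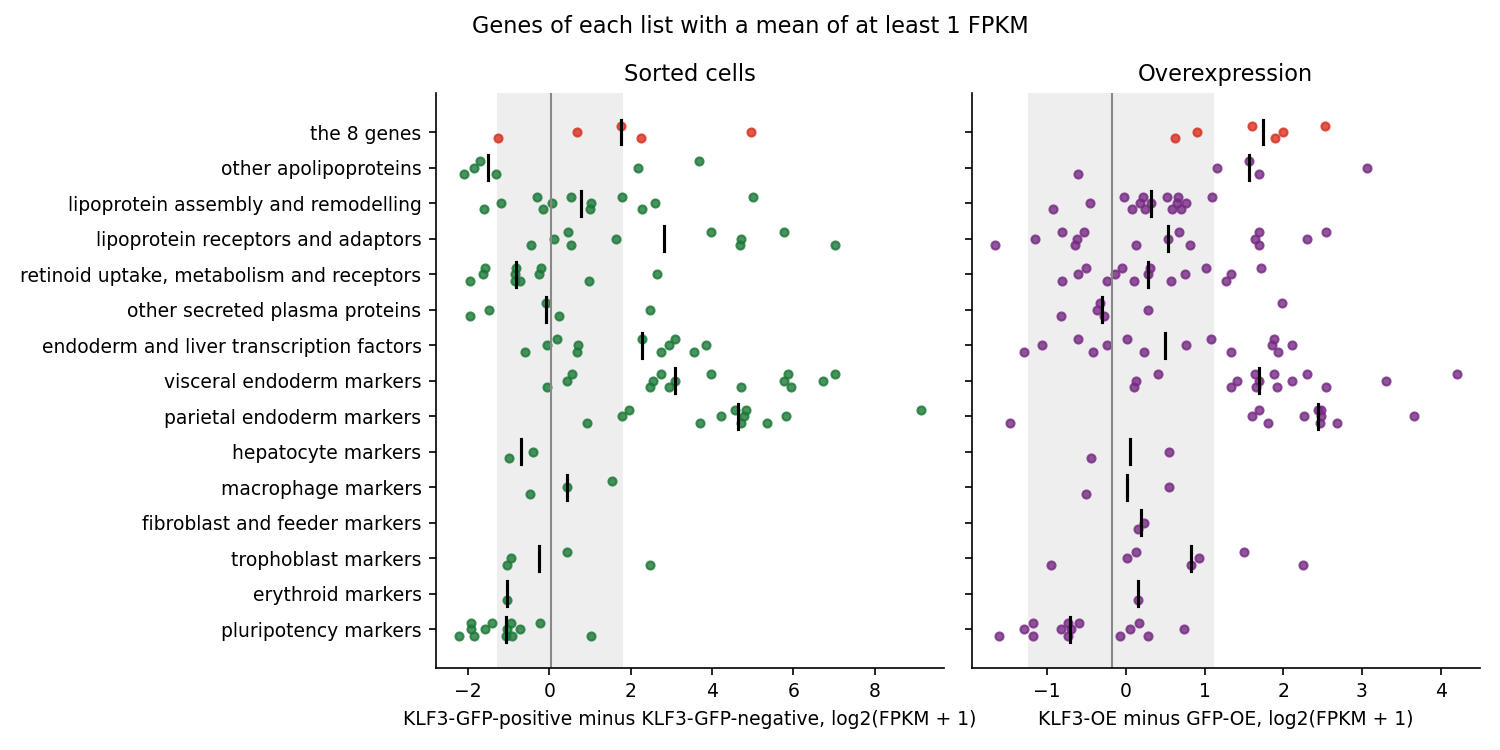
Difference of log2(FPKM + 1) for every counted gene of each list, 1 point per gene, in the sorted cells (left) and the overexpression experiment (right), with a black tick for the list's median, a grey line for the median of all genes counted and a grey band for their 5th to 95th percentile. The medians of the apolipoprotein and retinol transport genes are 1.77 and 1.75, and those of the visceral endoderm markers are 3.08 and 1.69.

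The genes whose levels over the 4 conditions lay nearest to each member were found by the Euclidean distance of log2(FPKM + 1), computed over 4 values only. For Apom they were Sox17 at a distance of 1.03, Clic3 at 1.10 and Foxq1 at 1.12. For Ttr they were Pxdc1 at 0.46, Vnn1 at 0.47 and Clic6 at 0.54. Sox17 is an endoderm transcription factor, and Vnn1 an ectoenzyme that makes cysteamine. For Apoa1 they were Nkx6-2 at 0.59, Smim3 at 0.99 and Saa3 at 1.10. For Rbp4 they were Tmem80 at 0.64, H2-Ab1 at 0.64 and 2010012O05Rik at 0.73. Saa3 is itself an apolipoprotein. For Apoc1 they were Ost4 at 0.73, Slc25a4 at 0.75 and Wbp5 at 0.83, and for Apoe mt-Nd4 at 1.15, Cfl1 at 1.45 and Fth1 at 1.49, which are genes of high level in most cells.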

How the data were processed

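RNA was sequenced from 8 samples in 4 groups of 2, as GEO's labels assign them. The deposited FPKM values, in 2 tables with 2 columns each, were made by the authors, who aligned reads to mm10 with STAR (2.6.0 in the submitters' processing notes, with an earlier version in the study's methods), computed FPKM with Cufflinks 2.2.1 and averaged replicates. All 4 columns were used. Depth was not recoverable from rounded averages, so the precision of a value is unknown. The tables printed values to 2 decimals with 0.1 as the lowest. Symbols that a spreadsheet had turned into dates were restored by identifier, and a repeated symbol was taken at its locus of highest level. Table coordinates are given 1-based on mm10.

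Differences of log2(FPKM + 1) were computed in Python 3.11.15 with pandas 2.3.3, numpy 2.4.6 and statsmodels 0.14.6 and drawn with matplotlib 3.10.9, after the scripts were tested on simulated data. Genes averaging 1 FPKM or more over their columns were counted. The text names every member, up to 4 genes of each pathway list by the size of the difference, genes of the pathway lists past 2-fold in both experiments, preset partners (some are not reported here), neighbours within 50 kb, and the 3 nearest genes over 4 columns. Marker lists are given mostly by counts. Alternatives changed the pseudocount, the filter on low values, the scaling of columns and a trend with gene span. The members and lists were chosen with earlier results of these data known. RefSeq promoter windows were matched by symbol for 6 of 8 members.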

Additional observations from a re-analysis of the deposited data

How the results depend on the processing

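No paired analysis was possible because each column is the authors' mean over both replicates. Fits with replicates left out, limma and a replicate block were not run for the same reason. Among 65 values of members under a smaller pseudocount, a floor, other scalings and removal of the trend with gene span, 61 kept their direction and their side of 2-fold. After overexpression, Apob passed 2-fold at 2.09 with a pseudocount of 0.1 FPKM, 2.91 with a floor of 0.1 FPKM and 1.09 with the trend with gene span removed, and Apoc1 at 1.11 with median-ratio scaling. The overexpression difference of Apoe ranged from 0.11, with quantile normalization, to 0.83, with median-ratio scaling. With a mean of at least 5 FPKM, 0 members fell in the sorted cells and 0 rose after overexpression, since the members concerned averaged under 5 FPKM. With no filter on low values, 4 members rose in the sorted cells, Ttr among them.

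List medians that changed sign were, with a mean of at least 5 FPKM, 2.17 for other apolipoproteins and 0.26 for other plasma proteins in the sorted cells, and -0.62 for endoderm and liver transcription factors, 0.28 for other plasma proteins and -0.091 for retinoid genes after overexpression. With no filter they were -0.00011 for macrophage markers in the sorted cells and 0.039 for other plasma proteins after overexpression, which were at 0.0056 with quantile normalization. With the span trend removed, the medians after overexpression were -0.11 for erythroid, -0.18 for fibroblast and -0.13 for macrophage markers. Of 392 counts over the other lists, 339 stayed within 1.5 times.

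Over all genes after overexpression, 738 rose and 1133 fell. The counts were 1167 and 688 with median-ratio scaling, 804 and 701 with quantile normalization, 794 and 587 with the span trend removed, 584 and 734 with a mean of at least 5 FPKM, 923 and 1819 with the smaller pseudocount, and 955 and 1912 with the floor. In the sorted cells 1267 rose and 766 fell, against 840 and 417 with a mean of at least 5 FPKM. The cause of these changes in count was not tested.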

Other observations

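Near Ttr, Gm10269 had a difference of -0.13 in the sorted cells and rose by 1.33 after overexpression. Near Apoa1, Zpr1 had differences of -0.25 and -0.06. Near Rbp4, Ffar4, a fatty acid receptor, was under the counting level in both experiments.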
